A study of Rattus norvegicus and Mus musculus with 18 samples.

Results

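The genes described here are the fibroblast growth factor (FGF) genes of mouse wound skin: the FGF family itself, the FGF receptors, the FGF-binding proteins, and the genes that damp FGF signalling. Members were chosen by symbol, with earlier results of these data known: protein-coding genes named Fgf and a number, Fgfr1 to Fgfr4, Fgfrl1, Fgfbp1, Fgfbp3, Spry1 to Spry4 and Dusp6. The rule found 33 of the 49548 genes of the mouse table, made up of 22 FGF genes, 5 receptors, 2 binding proteins and 4 feedback genes. Spry3 was not analysed here. RNA came from whole tissue of adult mice, separated into the epidermis and the dermis of a skin wound, 1 day after the scab came off. There were 3 libraries of each compartment, all labelled as wounded skin, so no unwounded mouse skin enters any comparison. The labels used here name no strain, sex or genotype. They also leave unsaid whether each library is a different animal, and the p-values therefore measure only the spread between these libraries. Values are TPM (the unit of transcript abundance), a length-corrected share of each library, made from cDNA that was amplified by SMART-seq2.

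FGFs are secreted proteins that bind receptor tyrosine kinases together with heparan sulfate, a sugar chain of the cell surface and matrix. In skin, ligands of the Fgf7 subfamily signal to keratinocytes through an epithelial splice form of Fgfr2, and many other FGFs signal to mesenchymal cells through Fgfr1. Receptor activation runs through adaptor proteins to Ras and the MAP kinases, and switches on Sprouty genes and Dusp6, which damp the same pathway. Fgf9 is known in mice for its part in the formation of new hair follicles in large wounds.

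The compartments were separated to different degrees in different libraries. Summed over 6 basal keratinocyte markers, wound dermis replicates 1, 2 and 3 held 16.6%, 29.8% and 2.41% of the wound epidermis mean. Over 6 markers of differentiating keratinocytes they held 0.997%, 24% and 0.515%. Wound dermis replicate 2 therefore held the most keratinocyte transcripts by both lists. Where it is the highest dermis library for a gene called higher in epidermis, the difference is also given without it. Replicate 1 held basal markers at 16.6%, so differences given without replicate 2 still include some keratinocyte transcripts. Fibroblast markers summed to 0.017% to 0.173% of the dermis mean in the epidermis libraries, so these libraries matched their label. In such bulk tissue, fewer cells of a type and less RNA per cell cannot be told apart.

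The question was which FGF genes differed between wound epidermis and wound dermis. Fgf22, Fgfbp1, Fgfbp3, Fgfr3 and Fgf1 were higher in wound epidermis, and Fgfr1, Fgfr4, Fgfrl1, Spry2, Spry4, Dusp6 and Fgf14 were lower. Genes were tested on log2(TPM + 1) with limma over all 15982 genes that reached 1 TPM in at least 3 of the 6 libraries, and a gene was called at a Benjamini-Hochberg adjusted p under 0.05. Of the 33 members 14 passed that filter; 5 were called higher and 7 lower in epidermis, and 2 (Fgfr2 and Spry1) were not called. Of all tested genes 17.0% were called higher and 39.3% lower, 56.3% in all. The 4 members Fgf14, Fgfr4, Fgfrl1 and Spry4 passed the filter only through the dermis libraries, as did 12.3% of all tested genes, so a gene of this kind had to be higher in dermis. The median log2 difference, epidermis minus dermis, was -0.70 over the 14 tested members and -0.42 over all tested genes. The libraries of the 2 compartments did not overlap for 4 tested members higher in epidermis and 7 lower, against 20.8% and 45.3% of all tested genes, 66.0% in all. A call was thus the common outcome between these tissues, and the members' counts are read against that background.

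**Figure D1:**
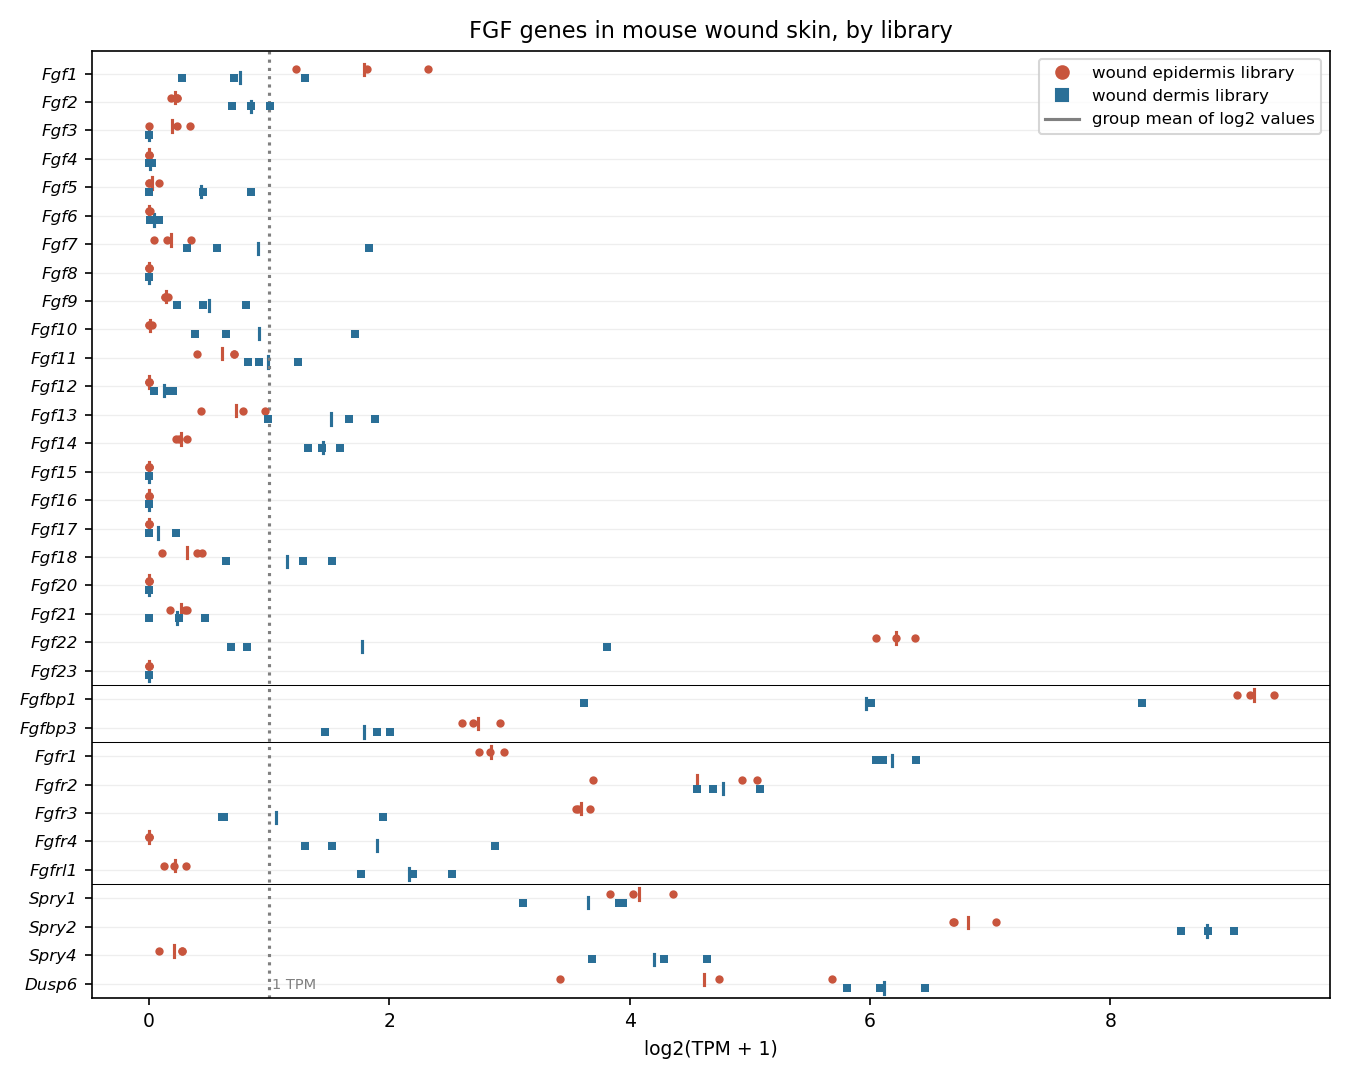
Level of each of the 33 FGF genes as log2(TPM + 1) on the x axis, with 1 point per library (circles, 3 wound epidermis; squares, 3 wound dermis), vertical bars at the group means, and horizontal rules between ligands, binding proteins, receptors and feedback genes. Most FGF ligand genes lie left of the dotted line at 1 TPM, while Fgf22 and Fgfbp1 stand high in epidermis and Fgfr1 and Spry2 in dermis.

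Among the ligands, Fgf22 was by far the most abundant transcript in epidermis. Fgf22 belongs to the Fgf7 subfamily, whose members act on epithelial cells. It lies on chromosome 10 from 79755076 to 79758596 (mm10, plus strand, protein-coding). Its level was 82.1, 73.4 and 65.1 TPM in the 3 wound epidermis libraries and 0.76, 13.0 and 0.61 TPM in wound dermis replicates 1, 2 and 3. Every epidermis library stood above every dermis library, and the dermis library with the most Fgf22 was the one with the most keratinocyte transcripts. Fgf22 differed by a log2 value of 4.44 ± 0.79 (SE, n = 3 each, limma adjusted p = 0.00286), and 5.46 without wound dermis replicate 2 (limma adjusted p = 3.91e-05 over the same genes). Wound dermis replicate 2 held Fgf22 at 17.7% of the epidermis mean, beside 24% for the summed differentiation markers; the other dermis libraries held 1.03% and 0.83%.

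The other 2 ligands of that subfamily with any value above 1 TPM, Fgf7 and Fgf10, are known as products of mesenchymal cells. Their coding sequences show what the 3 genes share and how far apart they are at the level of reads. The stretches below are the 60 coding bases, aligned in frame without a gap, in which the 3 genes have the most bases in common; capitals mark the 30 bases that are the same in all 3.
Fgf22: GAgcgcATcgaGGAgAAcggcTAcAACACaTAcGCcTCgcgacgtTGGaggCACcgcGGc
Fgf7: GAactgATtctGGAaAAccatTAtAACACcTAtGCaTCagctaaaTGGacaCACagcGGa
Fgf10: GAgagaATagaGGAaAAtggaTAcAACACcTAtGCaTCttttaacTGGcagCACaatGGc
They are bases 322 to 381, 421 to 480 and 463 to 522 of the coding sequence, counted from 1 at the A of the start codon, and lie at chr10:79756794-79756853, chr2:126089397-126089456 and chr13:118789149-118789208, all on the plus strand (mm10, from GENCODE M21 transcripts). Over the aligned coding sequence Fgf7 was 57.0% and Fgf10 54.7% identical to Fgf22, and Fgf7 and Fgf10 were 62.7% identical to each other. No 43-base window of the Fgf22 transcripts is shared with Fgf7 or Fgf10. The 40 of 2285 windows that Fgf22 shares with another gene are shared with Rnf126 on the opposite strand.

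Fgf7 and Fgf10 were low in both compartments. Fgf7, known as keratinocyte growth factor, was at 0.11, 0.03 and 0.28 TPM in epidermis and 0.25, 0.48 and 2.57 TPM in dermis. Fgf10 was listed at 0, 0 and 0.02 TPM in epidermis and at 0.31, 0.56 and 2.28 TPM in dermis. Gm16263, an antisense gene that shares 2.67% of the exonic bases of Fgf10, was at 1.71 TPM in dermis replicate 3 and listed at 0 elsewhere. For both Fgf7 and Fgf10 the dermis value came mostly from replicate 3, and the Fgf7 libraries overlapped between compartments. Neither passed the filter; in the fit without a filter the limma adjusted p was 0.23 for Fgf7 and 0.0947 for Fgf10. Of the fibroblast markers, Col1a2, Col3a1, Dcn, Lum and Pdgfra were highest in wound dermis replicate 3, while Col1a1 and the fibroblast sum were highest in replicate 1. Replicate 3 also held the most Schwann cell marker transcripts (85.2 TPM summed over 4 genes, against 9.16 and 39.8 TPM in replicates 1 and 2). Its macrophage marker sum was the highest as well (844 TPM over 5 genes, against 564 and 494 TPM), as were its T cell and skeletal muscle sums. It held the least keratinocyte markers. The part of these cell types in the Fgf7 and Fgf10 values was not tested. Fgf3, the remaining gene of the subfamily, did not exceed 0.27 TPM in any library.

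Fgf1, a ligand that can bind all the FGF receptors, was at 4, 2.52 and 1.34 TPM in epidermis and 0.21, 1.46 and 0.64 TPM in dermis. Epidermis replicate 3 lay below dermis replicate 2, so the compartments overlapped. Its log2 difference was 1.03 ± 0.36 (SE, n = 3 each, limma adjusted p = 0.0444), and 1.29 without wound dermis replicate 2. The call was lost without epidermis replicate 1 or 2 or dermis replicate 1 or 3 (limma adjusted p 0.104 to 0.139 over the same genes), and at a pseudocount of 0.1 (limma adjusted p = 0.059).

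Fgf2, the basic FGF made by many mesenchymal and endothelial cells, stayed near or below 1 TPM. It was at 0.14, 0.18 and 0.18 TPM in epidermis and 0.8, 0.62 and 1.01 TPM in dermis, with no overlap. It missed the filter, and in the fit without a filter its log2 difference was -0.63 (limma adjusted p = 0.01). Its exons overlap Nudt6 on the opposite strand (9.44% of its exonic bases), which was at 3.19 to 10.8 TPM in epidermis and 9.38 to 13.5 TPM in dermis. SMART-seq2 does not mark strand, so reads from the shared part cannot be assigned to either gene.

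Of the hair-follicle-associated ligands, Fgf9 was at 0.12, 0.1 and 0.1 TPM in epidermis and 0.37, 0.18 and 0.75 TPM in dermis, higher in every dermis library but below 1 TPM throughout. T cells are one known source of Fgf9 in mouse wounds; the 6 T cell markers summed to 14.4 to 36.3 TPM in epidermis and 22.7 to 43.5 TPM in dermis, so transcripts of such cells were present in every library. Fgf18, a ligand expressed in hair follicles, was at 0.32, 0.36 and 0.08 TPM in epidermis and 1.43, 0.56 and 1.88 TPM in dermis (limma adjusted p = 0.0545 in the fit without a filter). Fgf5, which ends the hair growth phase, was listed at 0, 0 and 0.06 TPM in epidermis and at 0, 0.8 and 0.37 TPM in dermis. Neither Fgf5 nor Fgf9 was called in the unfiltered fit (limma adjusted p 0.197 and 0.13).

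The 4 genes Fgf11 to Fgf14 encode intracellular FGF homologous factors, which bind sodium channels rather than act as secreted ligands. Fgf14 was at 0.25, 0.17 and 0.19 TPM in epidermis and 1.71, 1.5 and 2.02 TPM in dermis, with a log2 difference of -1.19 ± 0.16 (SE, n = 3 each, limma adjusted p = 0.000893). Its direction was set by the filter. Under quantile normalization Fgf14 stood at -0.32 (limma adjusted p = 0.202). Its antisense neighbour Gm28932, which shares 5.26% of its exonic bases, was at 4.93, 0.4 and 2.9 TPM in dermis and listed at 0 in epidermis. Fgf13 was at 0.96, 0.35 and 0.72 TPM in epidermis and 2.18, 0.99 and 2.69 TPM in dermis, so it was higher in every dermis library but reached 1 TPM in only 2. Fgf11 was at 0.32 to 0.64 TPM in epidermis and 0.77 to 1.37 TPM in dermis, and Fgf12 did not exceed 0.15 TPM. The summed Schwann cell markers were also higher in dermis, at 4.62 to 5.77 TPM in epidermis and 9.16 to 85.2 TPM in dermis. Mbp made up most of the epidermis sum (4.23 to 5.45 TPM) and was lower in dermis replicate 1 (1.82 TPM). Sums of fibroblast, endothelial, smooth muscle and pericyte, macrophage and skeletal muscle markers were higher in every dermis library too. Across dermis the Schwann cell sum rose from replicate 1 to 3, while Fgf13 and Fgf14 were lowest in replicate 2. The part of any of these cell types was not tested.

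The remaining ligands gave almost no signal. Fgf8, Fgf15, Fgf16, Fgf20 and Fgf23 were listed at 0 in all 6 libraries. Fgf4, Fgf6 and Fgf17 did not exceed 0.02, 0.06 and 0.17 TPM. Fgf21, an endocrine FGF, was at 0.13 to 0.25 TPM in epidermis and 0 to 0.38 TPM in dermis, with overlap. In all, 13 of the 22 FGF genes reached 1 TPM in no library. The read depth behind a TPM of 0 is unknown, so no upper limit can be given for these genes.

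The make-up of the FGF gene transcripts, with the intracellular Fgf11 to Fgf14 included, differed between compartments. Summed over the 22 FGF genes, epidermis held 88.5, 78.2 and 69.2 TPM and dermis 9, 21.3 and 16.9 TPM in replicates 1, 2 and 3. Fgf22 made up 92.8%, 93.9% and 94.0% of that sum in epidermis. In dermis it made up 8.44% and 3.61% in replicates 1 and 3 and 61.1% in replicate 2, the library with the most keratinocyte transcripts. Outside that library Fgf13 had the largest share of the dermis sum, 24.2% in replicate 1 and 15.9% in replicate 3, followed by Fgf14 at 19.0% in replicate 1 and Fgf7 at 15.2% in replicate 3. Fgf13 and Fgf14 are not secreted ligands. Leaving the intracellular genes aside, the largest shares were Fgf18 at 15.9% in replicate 1 and Fgf7 in replicate 3.

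**Figure D2:**
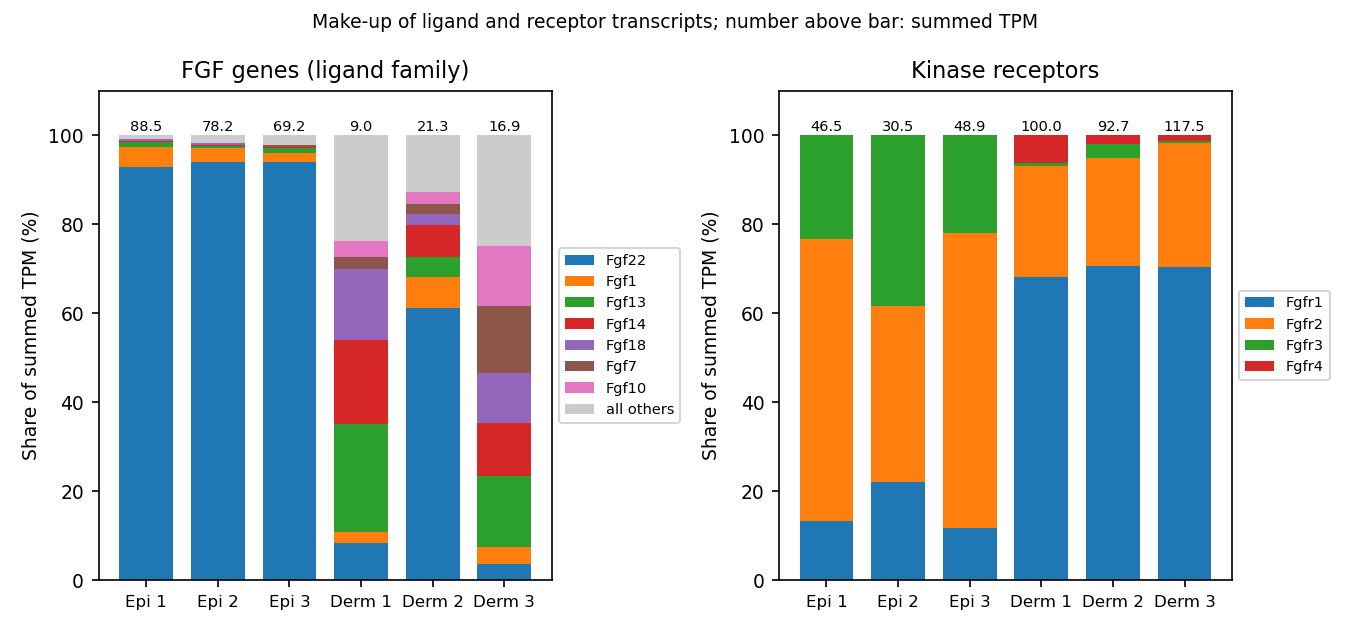
Stacked bars of the share (%) of summed TPM taken by each FGF gene (left, with genes not named in the legend in grey) and by each kinase receptor (right), for the 3 wound epidermis (Epi) and 3 wound dermis (Derm) libraries, with the summed TPM above each bar. Fgf22 fills 92.8% to 94.0% of the FGF gene sum in epidermis, and Fgfr1 fills 68.2% to 70.5% of the receptor sum in dermis.

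Of all members, Fgfbp1 had the highest level in epidermis. Fgfbp1, a secreted carrier that releases FGFs from the matrix, lies on chromosome 5 from 43978858 to 43981779 (mm10, minus strand). It was at 531, 571 and 654 TPM in epidermis and 63.3, 306 and 11.3 TPM in dermis replicates 1, 2 and 3. The compartments did not overlap, although the dermis libraries differed widely among themselves. Fgfbp1 had a log2 difference of 3.23 ± 1.02 (SE, n = 3 each, limma adjusted p = 0.0302), 4.38 without wound dermis replicate 2 and 2.06 without replicate 3, both still called. Without any of the 3 epidermis libraries or dermis replicate 1 it missed the threshold (limma adjusted p 0.0663 to 0.0799 over the same genes).

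Across the dermis libraries Fgfbp1 followed the order of the basal keratinocyte markers: 10.8%, 52.3% and 1.93% of the epidermis mean in replicates 1, 2 and 3, beside 16.6%, 29.8% and 2.41% for those markers. In replicate 2 its share of the epidermis level was above that of either keratinocyte list. How much of the dermis value came from keratinocytes was not tested.

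Fgfbp3, a related carrier, was far lower, at 5.48, 5.08 and 6.6 TPM in epidermis and 1.77, 3.01 and 2.74 TPM in dermis. All epidermis libraries stood above all dermis libraries. For Fgfbp3 the log2 difference was 0.95 ± 0.22 (SE, n = 3 each, limma adjusted p = 0.00951), and 1.06 without wound dermis replicate 2. Unlike Fgfbp1, it kept 30.9%, 52.6% and 47.9% of the epidermis level in the 3 dermis libraries, so replicate 3, with few keratinocyte transcripts, held nearly as much as replicate 2.

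**Figure D3:**
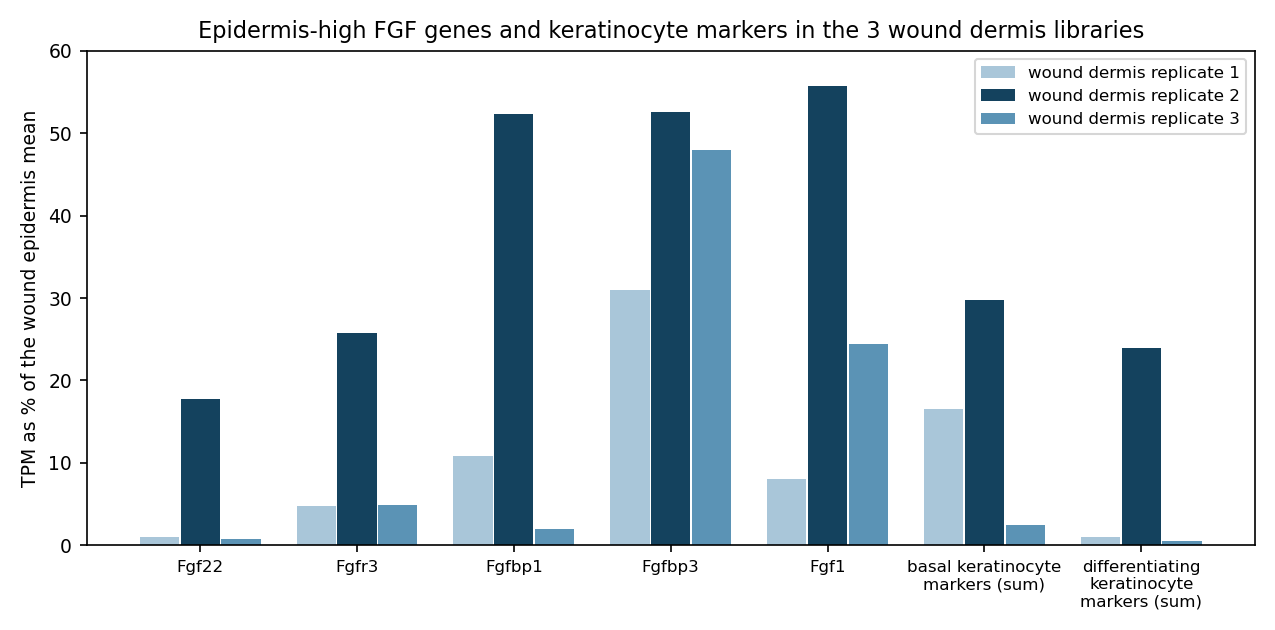
Level in each of the 3 wound dermis libraries as a percentage of the wound epidermis mean (y axis, from TPM) for the FGF genes called higher in epidermis and for 2 summed keratinocyte marker lists. Replicate 2 (darkest bars) is highest for every gene and list shown, with Fgf22 at 17.7% and Fgfbp1 at 52.3%, and Fgfbp3 also stays at 47.9% in replicate 3.

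The kinase receptors fell on both sides. Fgfr1, the main receptor of mesenchymal cells, was at 6.14, 6.75 and 5.7 TPM in epidermis and 68.1, 65.3 and 82.6 TPM in dermis. The 2 groups were far apart and each was tight. Fgfr1 had a log2 difference of -3.34 ± 0.19 (SE, n = 3 each, limma adjusted p = 2.01e-05), and it kept its call under every alternative tried. The epidermis libraries kept 7.92% to 9.38% of the dermis mean of Fgfr1, beside 0.017% to 0.173% for the summed fibroblast markers, 0.08% to 0.508% for smooth muscle and pericyte markers, 1.14% to 3.5% for endothelial markers, 8.58% to 11.8% for macrophage markers and 10.3% to 12.9% for Schwann cell markers. The part of these cell types in the epidermal Fgfr1 value was not tested.

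Fgfr3, which keratinocytes express, went the other way. It was at 10.9, 11.7 and 10.8 TPM in epidermis and 0.53, 2.87 and 0.54 TPM in dermis, where replicate 2 was again the highest. Fgfr3 had a log2 difference of 2.54 ± 0.38 (SE, n = 3 each, limma adjusted p = 0.00134) and 2.98 without that library, and it too kept its call under every alternative. The processed pseudogene Fgfr3-ps, aligned over 1016 coding bases, is 88.8% identical to Fgfr3 and was listed at 3.61, 0 and 7.68 TPM in epidermis and 0, 3.76 and 0 TPM in dermis. None of its 43-base windows occurs exactly in an Fgfr3 transcript, but reads with mismatches could move between them, and the mismatch settings were not given in the sources used here.

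Fgfr2 did not differ beyond the spread between libraries. It was at 29.5, 12.0 and 32.4 TPM in epidermis and 24.9, 22.6 and 32.9 TPM in dermis, with full overlap. Epidermis replicate 2 was the low library. The log2 difference was -0.22 ± 0.38 (SE, n = 3 each, limma adjusted p = 0.653), with a 95% interval of -1.12 to 0.69. It turned to 0.22 without epidermis replicate 2, to 0.24 under median-of-ratios scaling and to 0.14 under quantile normalization, and it was called in none of these. These gene-level values do not separate the epithelial and mesenchymal splice forms of Fgfr2.

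Fgfr4 was listed at 0 in all 3 epidermis libraries and at 6.36, 1.88 and 1.47 TPM in dermis (limma adjusted p = 0.00569). No fold change is given against a group listed at 0. Fgfrl1, a receptor that lacks the kinase domain, was at 0.24, 0.09 and 0.16 TPM in epidermis and 4.74, 2.4 and 3.59 TPM in dermis. Its log2 difference was -1.95 ± 0.23 (SE, n = 3 each, limma adjusted p = 0.000465). The direction of both Fgfr4 and Fgfrl1 was set by the filter. For both genes replicate 1 was the highest dermis library. Replicate 1 also held the most smooth muscle and pericyte marker transcripts (7386 TPM summed over 5 genes, against 5606 and 3658 TPM). Most of that sum was Rgs5 (7141 TPM, against 5465 and 3448 TPM), and Tagln was highest in replicate 3. The endothelial marker sum was highest in replicate 1 as well (344 TPM over 5 genes, against 259 and 216 TPM). Of these genes Cldn5 was instead lowest in replicate 1 (66.9 TPM, against 87.4 and 84.0 TPM). The fibroblast marker sum was also highest there (67061 TPM over 6 genes, against 42453 and 64480 TPM), but only through Col1a1 (38002 TPM, against 23600 and 34097 TPM). Col1a2, Col3a1, Dcn, Lum and Pdgfra were highest in replicate 3. The part of these cell types was not tested.

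Summed over the 4 kinase receptors, epidermis held 46.5, 30.5 and 48.9 TPM and dermis 99.95, 92.7 and 117 TPM. In epidermis Fgfr2 made up 63.4%, 39.4% and 66.3% of that sum, Fgfr3 23.4%, 38.5% and 22.0%, and Fgfr1 13.2%, 22.2% and 11.7%. In replicate 2 Fgfr2 and Fgfr3 were therefore about equal. In dermis Fgfr1 made up 68.2%, 70.5% and 70.3%, Fgfr2 24.4% to 28.0%, and Fgfr3 at most 3.1%.

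The feedback genes did not move as 1 block. Spry2, an inhibitor of receptor tyrosine kinase signalling, was the most abundant Sprouty gene in both tissues. It was at 103, 103 and 132 TPM in epidermis and 521, 447 and 383 TPM in dermis, without overlap. Spry2 had a log2 difference of -1.99 ± 0.22 (SE, n = 3 each, limma adjusted p = 0.00031).

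Spry4, a Sprouty gene induced by FGF signalling, was almost absent from epidermis, at 0.21, 0.06 and 0.21 TPM in epidermis and 18.6, 24 and 11.9 TPM in dermis. At -4.0 ± 0.28, its log2 difference was the lowest among the tested members given a fold (SE, n = 3 each, limma adjusted p = 3.88e-05). The direction was set by the filter. Epidermis held 0.331% to 1.16% of the dermis mean of Spry4.

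Spry1 went with neither. It was at 15.3, 19.6 and 13.3 TPM in epidermis and 14.4, 14.0 and 7.66 TPM in dermis, and the compartments overlapped. For Spry1 the log2 difference was 0.42 ± 0.29 (SE, n = 3 each, limma adjusted p = 0.252), with a 95% interval of -0.26 to 1.10. Spry1 made up 12.9%, 16% and 9.18% of the summed Sprouty transcripts in epidermis and 1.9% to 2.89% in dermis, and Spry2 made up 83.9% to 90.7% and 92.2% to 95.1%.

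Dusp6, the phosphatase that inactivates ERK, was at 9.73, 50.5 and 25.8 TPM in epidermis and 86.8, 54.9 and 67.0 TPM in dermis. The compartments did not overlap, but epidermis replicate 2 came close to dermis replicate 2, and the epidermis libraries spanned a wide range. For Dusp6 the log2 difference was -1.50 ± 0.54 (SE, n = 3 each, limma adjusted p = 0.0475). This call was fragile. It was kept without epidermis replicate 2, and lost without any other single library (limma adjusted p 0.0641 to 0.139 over the same genes), with -0.90 without epidermis replicate 1. It was also lost under median-of-ratios scaling (-1.04, limma adjusted p = 0.174), under quantile normalization (-1.23, limma adjusted p = 0.0977) and at a pseudocount of 0.5 (limma adjusted p = 0.0509).

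Epidermis replicate 2 thus had the lowest Fgfr2 and the highest Dusp6 of its group. It also had the most differentiation marker transcripts (60894 TPM summed over 6 genes, against 42647 and 25195 TPM) and the fewest basal markers (6748 TPM, against 9779 and 17697 TPM); the part of this in either value was not tested.

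**Figure D4:**
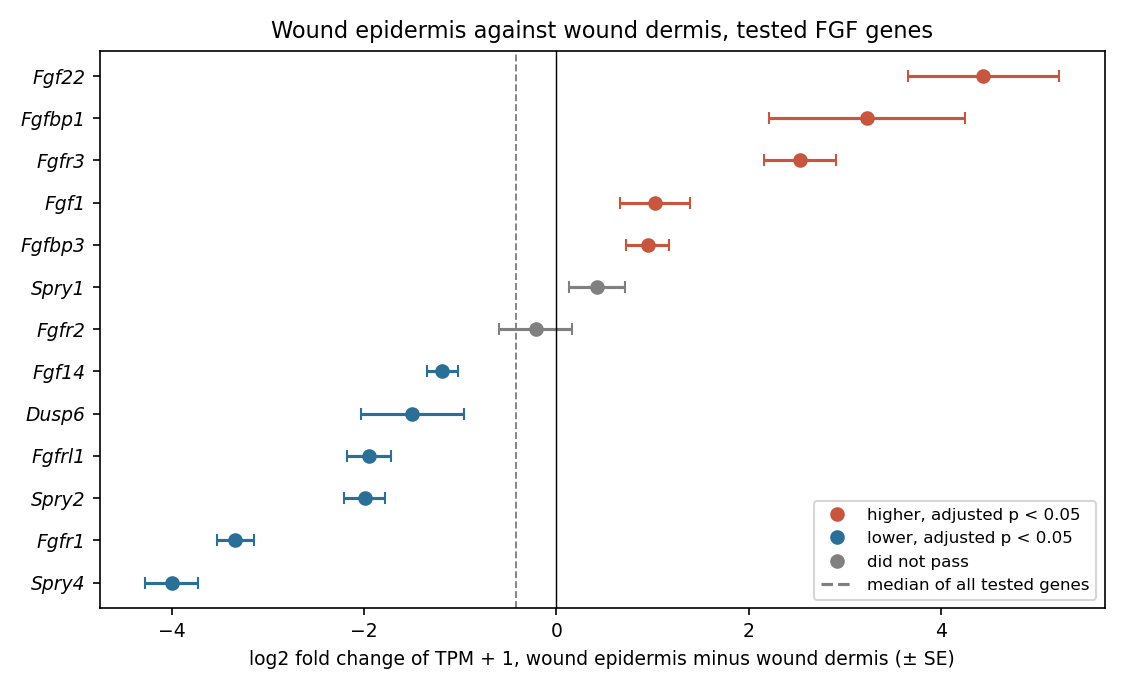
Log2 fold change of TPM + 1 (x axis, wound epidermis minus wound dermis, error bars ± SE, 3 libraries each) for the tested FGF genes other than Fgfr4, which is listed at 0 in epidermis. Values run from -4.0 for Spry4 to 4.44 for Fgf22, with the dashed line at the median of all tested genes (-0.42).

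Of the 12 called members 9 kept their call when each library was left out in turn with the same genes tested. Fgf1, Fgfbp1 and Dusp6 were the others. Among the 9, Fgf14, Fgfr4, Fgfrl1 and Spry4 had passed the filter only through dermis, and testing the same genes kept that choice. For low genes the size of the difference depended on the pseudocount: at 0.1 it was -2.60 for Fgf14, -3.79 for Fgfrl1, -6.14 for Spry4, 1.81 for Fgf1, 3.40 for Fgfr3 and 5.19 for Fgf22. Under quantile normalization Fgfrl1 stood at -1.13, Spry4 at -3.34 and Fgfbp3 at 1.66. Another scaling moved the median of all genes from -0.42 to -0.03 (median-of-ratios) or 0.08 (quantile), and the share of called genes that were higher in epidermis from 30.2% to 47.2% or 52.8%. Under these scalings 5 members were called higher in each, and 6 and 5 lower.

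The wider pathway was read from 4 lists of 52 genes, of which 45 were tested; 8 were higher and 22 lower in epidermis, with a median log2 difference of -0.59. Over all tested genes 17.0% were higher and 39.3% lower, with a median of -0.42, and the counts of these lists are to be read against that. Of the 45 genes 6 passed the filter only through the dermis libraries and so had to be higher there: Sdc3, Gpc3, Gpc6, Sulf1, Etv1 and Spred2. The split depended on scaling, with 13 higher and 16 lower after median-of-ratios scaling.

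The heparan sulfate list, of core proteins and the enzymes that build and trim their chains, had the lowest median of the 4. Of its 17 tested genes (18 listed) 2 were higher and 13 lower, with a median of -1.88, but 4 of the 17 had passed only through dermis. With 1 dermis library left out and the filter applied anew, 13 genes were tested, 6 to 9 were lower, and the median lay between -0.98 and -0.76. Either other scaling left 10 of the 17 called lower. Sdc1, the syndecan of epithelial cells, was at 508, 342 and 583 TPM in epidermis and 93.3, 215 and 81.0 TPM in dermis (log2 difference 1.98, limma adjusted p = 0.00533; 2.41 without dermis replicate 2). Sdc4, another syndecan, was higher by 1.12 (limma adjusted p = 0.0159; 1.33 without dermis replicate 2), a call lost without epidermis replicate 1 or dermis replicate 1 or 3 (limma adjusted p 0.0503 to 0.0579) and under quantile normalization (0.0617). Gpc3, a glypican, was at 0.36, 0.32 and 0.51 TPM in epidermis and 205, 199 and 288 TPM in dermis (log2 difference -7.36, limma adjusted p = 1.07e-05; -8.86 at a pseudocount of 0.1); its direction was set by the filter. Hspg2, which encodes the basement membrane proteoglycan perlecan, stood at -5.34 (limma adjusted p = 6.82e-05; -5.94 at a pseudocount of 0.1).

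Among co-receptors and membrane partners only Flrt2 and Flrt3 of 5 genes passed the filter, and they differed in opposite directions. Flrt3 was at 76.8, 70.3 and 65.1 TPM in epidermis and 13.4, 34.4 and 11.1 TPM in dermis (log2 difference 1.97, limma adjusted p = 0.00502; 2.44 without dermis replicate 2). Flrt2 was at 2.26, 1.87 and 3.06 TPM in epidermis and 11.1, 8.9 and 10.9 TPM in dermis (log2 difference -1.74, limma adjusted p = 0.000628; -1.07 under quantile normalization). Klb, the co-receptor of endocrine FGFs, was listed at 0 in every library, and Kl did not exceed 0.76 TPM.

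The adaptors and the Ras-MAPK cascade had a median near 0. Of 16 tested genes (17 listed) 3 were higher and 4 lower, with a median of -0.08; after median-of-ratios scaling 6 were higher and 1 lower. Hras was higher by 1.23 (limma adjusted p = 0.0041; 1.32 without dermis replicate 2). The adaptor Grb2 stood at -1.01 (limma adjusted p = 0.00255). Sos1, the exchange factor for Ras, stood at -0.60 (limma adjusted p = 0.0413), and lost its call without any one library other than dermis replicate 3 over the same genes (limma adjusted p 0.0639 to 0.144), and under median-of-ratios scaling (-0.24) and quantile normalization (0.17).

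Of 10 tested target and feedback genes outside the member list (12 listed) 2 were higher and 4 lower. Dusp5, like Dusp6 a phosphatase of ERK, went the opposite way to it, at 63.3, 58.2 and 36.5 TPM in epidermis and 1.63, 11.6 and 2.12 TPM in dermis (log2 difference 3.48, limma adjusted p = 0.00242; 4.19 without dermis replicate 2). Myc was higher by 1.15 (limma adjusted p = 0.0354; 1.5 without dermis replicate 2), but missed the threshold without epidermis replicate 1 or 3 or dermis replicate 1 or 3 (limma adjusted p 0.079 to 0.116 over the same genes). Etv1, an ETS transcription factor induced by FGF signalling, was listed at 0 in epidermis and was at 4.31, 2.12 and 4.91 TPM in dermis (limma adjusted p = 0.00049), a direction set by the filter. Spred1, a Sprouty relative, was at 1.35, 1.03 and 2.02 TPM in epidermis and 11.0, 9.3 and 9.32 TPM in dermis (log2 difference -2.16, limma adjusted p = 0.000249; -1.46 under quantile normalization).

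**Figure D5:**
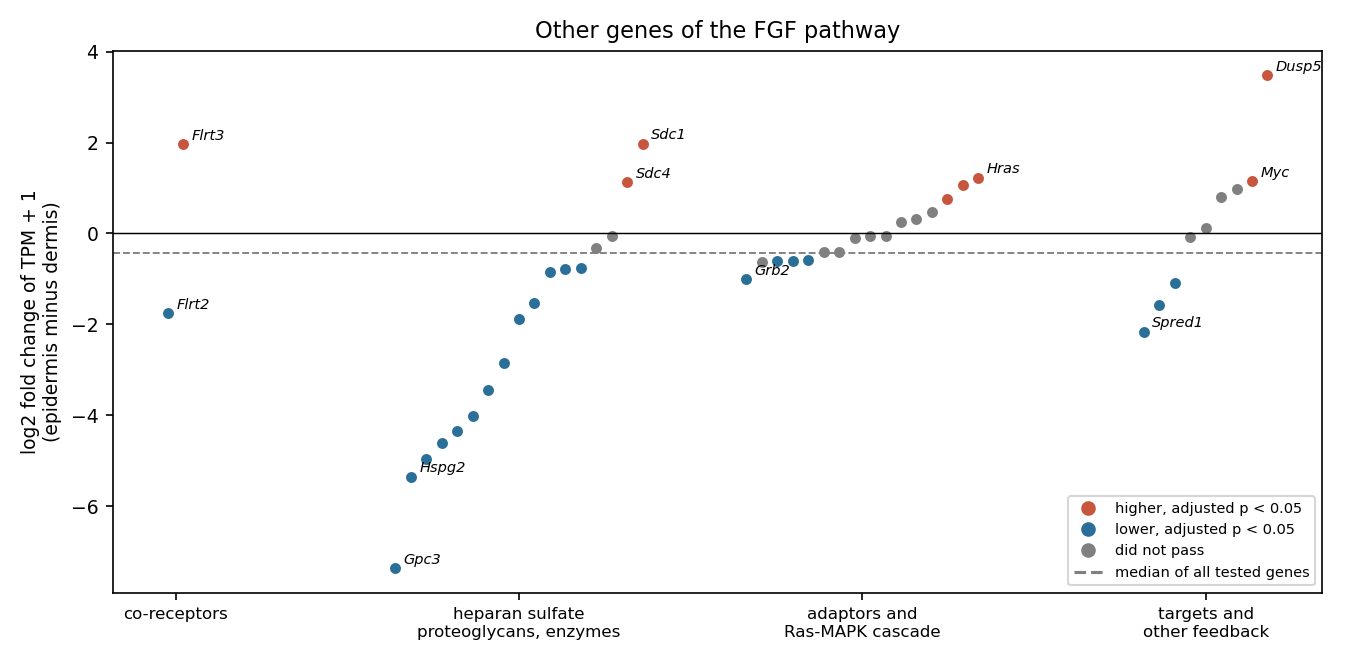
Log2 fold change of TPM + 1 (y axis, wound epidermis minus wound dermis) for the tested genes of 4 pathway lists, 1 point per gene and ordered within each list; Etv1, listed at 0 in epidermis, is not drawn. The heparan sulfate list reaches down to Gpc3 at -7.36, while the adaptor and Ras-MAPK genes lie between -1.01 and 1.23.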

How the data were processed

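SMART-seq2 libraries of mouse wound epidermis (3) and wound dermis (3) were used; the 12 rat libraries were not analysed here. The deposited values are TPM per gene, computed by the authors library by library. The tools named are RSEM 1.2.31 and Bowtie 1.0.0, with the build mm10, per the submitters' processing notes; annotation and settings were not given in the sources used here. Per the labels' protocols, inputs of 10 or 100 ng and reads of 86 or 43 bases were used, without saying which library had which. Each library has the same TPM sum, TPM keeps no depth, and a few abundant genes shift all others.

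Ensembl identifiers were paired with symbols from GENCODE M21 for 49548 listed genes where one existed. TPM was tested as log2(TPM + 1) with limma 3.58.1 (R 4.3.3, mean-variance trend, no covariate), keeping genes with at least 1 TPM in 3 libraries, with Benjamini-Hochberg adjustment over 15982 genes; such differences understate the change of low genes. All members are accounted for; from each other list the 2 highest and 2 lowest called genes are named, except 1 that is not reported here. Members and lists were chosen with earlier results of these data known. Alternatives were other pseudocounts, filters and scalings, no trend, a replicate block, and leaving out each library; leaving one out over the same genes was added after seeing the data. Sequences were compared with Biopython 1.88.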

Additional observations from a re-analysis of the deposited data

How the results depend on the processing

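Of the 12 called FGF genes, Fgf22, Fgfbp3, Fgfr1, Fgfr3, Fgfr4, Fgfrl1, Spry2 and Spry4 (8) kept their call under every alternative that gave a value. For Fgfr4, Fgfrl1 and Spry4 the direction was set by the filter. With each library left out and the filter applied anew, 3 to 5 members were higher and 2 to 7 lower. Without a dermis library Fgf14, Fgfr4, Fgfrl1 and Spry4 failed the filter and Dusp6 lost its call. The count of higher members fell where Fgf1 or Fgfbp1 lost its call. With the same genes tested, 3 to 5 were higher and 6 to 7 lower. Other pathway genes numbered 6 to 8 higher and 10 to 20 lower (16 to 20 with the same genes), and all genes 1943 to 2675 higher and 3256 to 6406 lower (2124 to 2791 and 5291 to 6376 with the same genes). Without a filter 3 members were higher, and with a filter of 5 TPM, which fewer members pass, 4 were lower. Median-of-ratios scaling called 13 other pathway genes and 4342 of all genes higher, and quantile normalization 4694 of all genes; the cause was not tested. Fgfr2 turned to 0.24 and 0.14 under these scalings and ran from -0.46 to 0.22 with single libraries left out (0.22 without wound epidermis replicate 2), and Sos1 to 0.17 under quantile normalization.

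The labels do not say whether libraries with the same replicate number are paired. Deviations from the group means correlated at -0.14, 0.09 and 0.19 for the same numbers, and at -0.20 to 0.12 for different numbers. With 3 libraries in each group, these values cannot settle whether the libraries are paired. With the replicate block 4 members were higher and 6 lower, with Fgf1 (adjusted p = 0.0627) and Dusp6 (adjusted p = 0.07) no longer called by limma. Read depth is unknown, so it sets no limit that can be stated for genes listed at 0.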

Other observations

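Several members share exonic bases with a neighbour, and the levels of these neighbours bear on how the values can be read. Rnf126, which shares 3.65% of the exonic bases of Fgf22 on the opposite strand, was at 97.7 to 120 TPM in epidermis and 34.9 to 62.9 TPM in dermis. Ctbp2, which shares 3.04% of the exonic bases of Fgfr2 on the same strand, was at 26 to 31.1 TPM in epidermis and 39.5 to 59.5 TPM in dermis. Gm42922, opposite Spry1 over 24.4% of its exonic bases, did not exceed 0.34 TPM, and G630022F23Rik, opposite Fgfr3 over 13.9%, did not exceed 0.02 TPM. Spry4, Dusp6, Fgfbp1, Fgfbp3, Fgfr4 and Fgfrl1 shared none of their 43-base windows with a transcript of another gene.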
